A study of Sus scrofa with 6 samples.

Results

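The genes described here encode factors that build ribosomes. They were the probe sets of an Affymetrix porcine array whose single platform gene symbol named a nucleolar protein (the NOP, NOL and NOC series), a factor of the UTP or RRP series, a core protein of the small nucleolar ribonucleoproteins (snoRNPs), or another assembly factor fixed by symbol, such as PES1, BYSL, NSA2 and WDR12. The choice used symbols only and no measured value. It took 65 of the 23999 probe sets that were not controls, and these stood for 48 of the 6765 genes that a single symbol named, 14 of them with more than 1 probe set. Probe sets of one gene are numbered here in the order of their identifiers. RNA was measured in eggs of adult female pigs (sows, 3 arrays) and of prepubertal female pigs (gilts, 3 arrays). The labels call the adult eggs developmentally competent and the prepubertal ones incompetent, so the comparison asks which transcripts differ between them. In both groups the oocytes came from follicles of 2 to 6 mm, were matured in culture for 42 to 44 h, were stripped of cumulus cells with hyaluronidase and vortexing, and were at metaphase II, with a first polar body. The labels name the arrays of a group as biological replicates and do not give the number of oocytes or animals behind an array, so the tests rest on the spread between these arrays, which may be partly technical.

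Ribosomes are built in the nucleolus, where RNA polymerase I makes a long precursor RNA. SnoRNPs modify this precursor, the small subunit processome folds and cuts the part that becomes the 40S subunit, and a separate set of factors assembles the 60S subunit. A growing oocyte makes and stores ribosomes for the embryo. By the end of growth its nucleolus becomes compact and ribosomal RNA synthesis stops. The transcripts in a mature egg are mostly stored ones.

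No ribosome biogenesis gene passed the threshold in the comparison of adult with prepubertal oocytes once the arrays were brought to one distribution. NSA2, a factor of the large subunit, came closest and passed on the values as deposited, with a signal 2.17-fold higher in adult oocytes. The tested probe sets of the pathway scattered to both sides of 0, with a median log2 difference (adult minus prepubertal) of −0.03, against 0.01 over all probe sets tested. There were 17 with log2 differences above and 24 below 0, and as deposited 30 above and 10 below. Their box C/D, box H/ACA, small subunit and large subunit groups had medians between −0.23 and −0.02, and as deposited between −0.11 (box C/D) and 0.26 (box H/ACA).

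The deposited signals were not at a common level. The 2% trimmed mean signal was 141 ± 19.4 on adult arrays and 116 ± 12.9 on prepubertal arrays (SD, n = 3 each). On the log2 scale they differed by 0.27, with a 2-sided exact permutation p of 0.2 (3 against 3 arrays cannot give a p under 0.1). Signals were therefore quantile-normalized, which gives the arrays one distribution. Unless stated otherwise, signals below are these normalized values. Log2 differences and folds from the limma fit are of signal + 16. On the log2 scale as deposited, all tested probe sets were shifted by a median of 0.20 towards adult oocytes, and a difference as deposited is to be read against that shift. Pairs of arrays correlated at 0.978 to 0.980 within the adult group, at 0.968 to 0.974 within the prepubertal group and at 0.966 to 0.976 across groups (over probe sets, which are not independent). The actin control had a 3′ signal far above that of its middle part on each array, and the log2 ratio was 5.71 ± 0.16 in adult and 5.74 ± 0.27 in prepubertal oocytes (exact permutation p = 0.8). The summed signal of 7 oocyte marker genes lay between 4651 and 5360 in adult oocytes and between 5632 and 5970 in prepubertal oocytes, without overlap, while as deposited it lay between 5106 and 5812 in adult and between 4757 and 5754 in prepubertal oocytes, with overlap. Most of this sum came from ZP4 and ZP2 of the egg coat, with means of 2420 and 1442 in adult oocytes and of 2821 and 1838 in prepubertal oocytes (log2 differences −0.23 and −0.35, and 0.05 and −0.07 as deposited). All 7 markers were above the filter, and they did not share a direction. BMP15 (−0.42) also lay below 0, while POU5F1 (0.36), GDF9 (0.31), NPM2 (0.14) and ZP3 (0.03) lay above it, and 0 of the 7 passed the adjusted test (unadjusted p in limma 0.00942 for ZP2, 0.0274 for BMP15 and 0.0443 for POU5F1). The 17 probe sets of 11 cumulus and granulosa markers summed to 277 to 280 in adult and to 229 to 324 in prepubertal oocytes. Of these 11 genes 3 were above the filter, INHBA (log2 difference 0.07), INHA (−0.22) and HSD3B1 (−0.36 on one probe set and −0.16 on the other). The defining markers CYP19A1, FSHR and STAR were below the filter. The 3 blood and immune markers measured, of which HBB was above the filter (log2 difference 0.27) and PTPRC (0.41) below it, summed to 236 to 382 in adult and to 178 to 379 in prepubertal oocytes. The part of these markers in the results was not tested. In such bulk samples fewer cells of a type and less RNA per cell cannot be told apart.

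Of the 65 probe sets 41 were tested, for 36 genes, because their mean log2 value lay at or above the median of all probe sets, which corresponds to a signal of 16.1. The other 24 had mean signals between 3.08 and 16.7, and for 12 genes no probe set was tested. These were BOP1 and PES1, which form a complex of large subunit assembly with the tested WDR12, the large subunit factors EBNA1BP2 and MRTO4, the small subunit factors IMP4, NOP9, RRP36, RRP7A, TSR3, UTP15 and WDR46, and NOL8, a nucleolar protein that was given no role group here. The untested probe sets had log2 differences between −0.57 and 0.82, 9 above and 15 below 0, on signals too low for these to be read as levels. Of the 41 tested probe sets 3 had a mean under the filter in 1 group and were tested only through the other. These were probe set 1 of RRP9 and NOC3L, through the prepubertal group, and probe set 2 of RRP9, through the adult group. The other 38 had a median log2 difference of −0.03, with 16 above and 22 below 0. The array files give no detection call, so a signal under the filter is a dim signal and not an absent transcript.

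In the limma fit across 12000 probe sets, 0 of the 41 tested members passed an adjusted p of 0.05, where 0.117% of all tested probe sets did (14 of 12000, 11 of them higher in adult oocytes). The lowest adjusted p of a member was 0.11 (NSA2). At an unadjusted p under 0.05 there were 3 members with higher signals in adult oocytes, NSA2, NOP2 and 1 probe set of DKC1, where the background was 5.81% of all tested probe sets. There were 2 with lower signals in adult oocytes, where the background was 5.05%, and without the 3 probe sets under the filter in 1 group there was 1, TSR2. The other was probe set 1 of RRP9. The members' shares are near these backgrounds. Groups did not overlap for 3 members with higher signals in adult oocytes (NSA2, UTP3 and DKC1; background 8.77%) and for 3 with lower ones (TSR2, NIP7 and RRP9 probe set 1; background 7.54%), or 2 without RRP9, which passed the filter only through the prepubertal group.

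**Figure D1:**
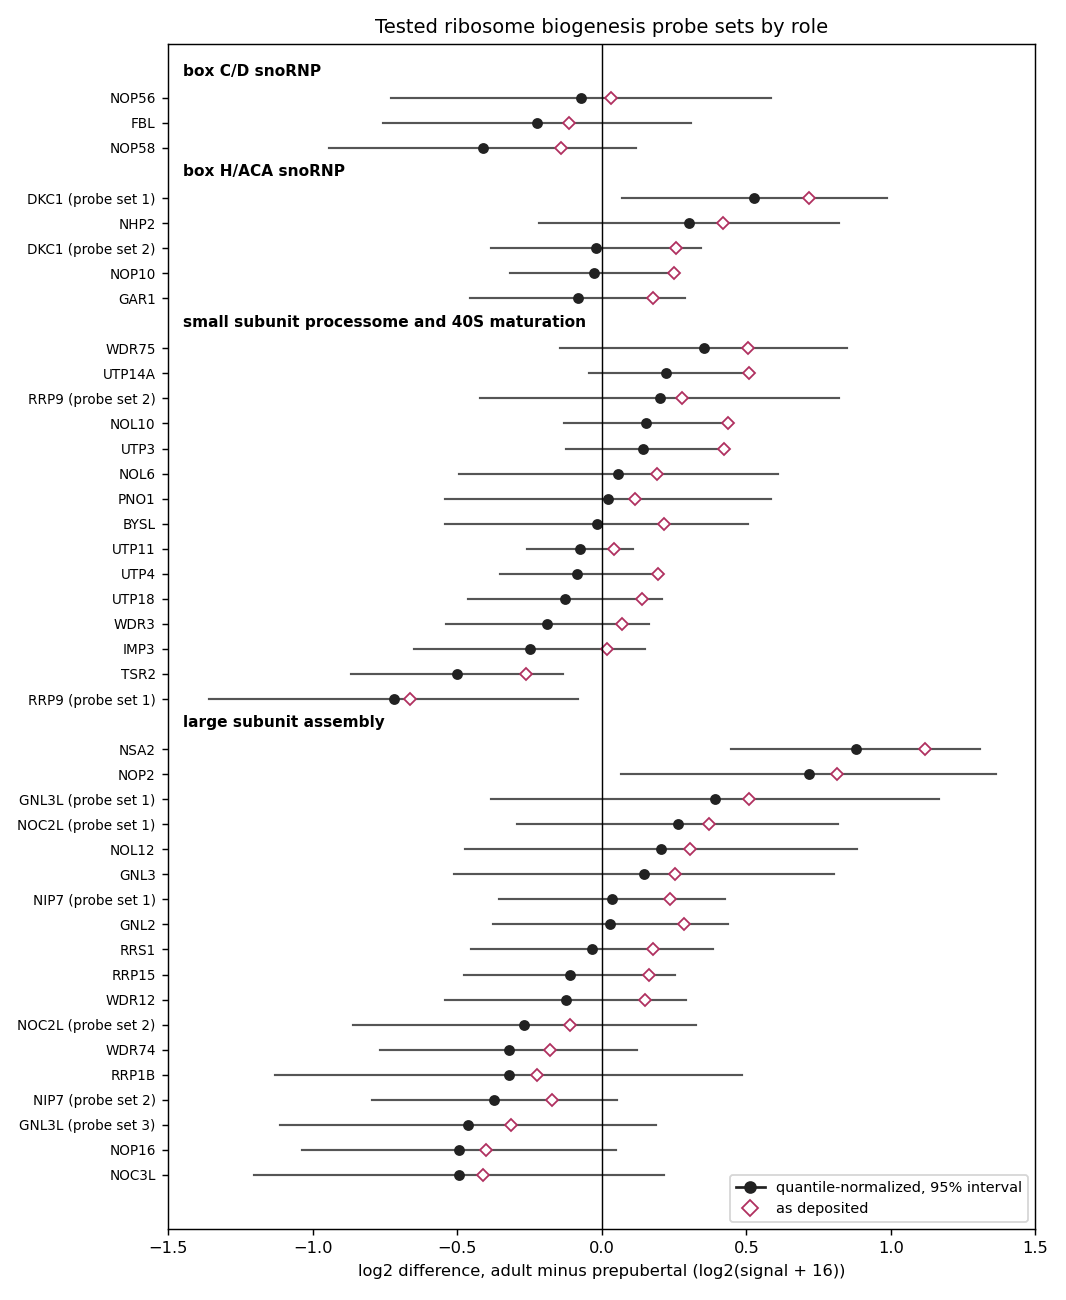
Log2 difference between adult and prepubertal oocytes (horizontal axis, log2(signal + 16), adult minus prepubertal) for the 41 tested probe sets of ribosome biogenesis genes, sorted by role; filled circles with lines are the quantile-normalized values with 95% intervals of the limma fit, and open diamonds are the values as deposited. The circles lie on both sides of 0 between −0.72 and 0.88, 36 of the 41 intervals contain 0, and most diamonds lie to the right of their circles.

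The precision of the fit limits what can be said of single genes. The 95% interval, not adjusted for the number of genes, lay wholly within a 2-fold difference in either direction for 33 of the 41 tested members (80.5%, against 85.2% of all tested probe sets). It lay within a 1.5-fold difference for 17 of 41 (41.5%, against 34.8%). For the remaining members a difference of that size was neither shown nor bounded by these arrays.

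Box C/D snoRNPs guide the methylation of ribosomal RNA, and 3 of their core proteins were on the array. Of these, 0 of 3 passed the test, and all 3 differences were below 0, with a median of −0.23, although as deposited that of NOP56 was 0.03. FBL (fibrillarin), the methyltransferase itself, had a signal of 24.5 ± 7.42 in adult and 31.1 ± 5.37 in prepubertal oocytes (SD, n = 3 each). NOP58, a scaffold protein of the particle, had signals of 295, 281 and 523 in adult oocytes and of 353, 629 and 477 in prepubertal oocytes. Its groups overlapped through adult replicate 3, and its log2 difference was −0.41 ± 0.24 (SE, limma adjusted p = 0.564). NOP56, the partner of NOP58 in the particle, had signals of 29.5, 34.2 and 29.5 in adult oocytes and of 42.1, 13.7 and 53.8 in prepubertal oocytes. The adult arrays lay close together and the prepubertal ones on both sides of them, and the log2 difference was −0.07 (adjusted p = 0.956).

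Box H/ACA snoRNPs guide the conversion of uridine to pseudouridine, and all 4 core proteins were measured by at least 1 tested probe set. None of the 5 tested probe sets passed the adjusted test, and 1, of DKC1, had an unadjusted p under 0.05. DKC1 (dyskerin) is the pseudouridine synthase of the particle and also a part of telomerase. Its probe set 1 had signals of 161, 132 and 122 in adult oocytes and of 114, 64.4 and 99.95 in prepubertal oocytes. The groups did not overlap, with prepubertal replicate 1 close to adult replicate 3, and the difference was 0.53 ± 0.21 (1.44-fold, 95% interval 1.05 to 1.98; unadjusted p = 0.0276, adjusted p = 0.389). DKC1 probe set 2 had signals of 408, 455 and 382 in adult oocytes and of 345, 409 and 524 in prepubertal oocytes. These groups overlapped fully (log2 difference −0.02, 95% interval from −0.38 to 0.34, limma adjusted p = 0.979), so probe set 2 gave no direction of its own. As deposited both DKC1 probe sets lay above 0 (0.72 and 0.26), where all tested probe sets were shifted by 0.20. NOP10, a small scaffold protein of the particle, had signals of 2725, 3918 and 3660 in adult oocytes and of 3076, 3698 and 3631 in prepubertal oocytes. That is a log2 difference of −0.03 with a 95% interval from −0.32 to 0.26. GAR1, which binds dyskerin in the particle, had a signal of 230.5 ± 31.96 in adult and 245 ± 36.6 in prepubertal oocytes. NHP2, another core protein, had a signal of 35.9 ± 8.38 in adult and 26.0 ± 5.52 in prepubertal oocytes (log2 difference 0.30, adjusted p = 0.678), and its second probe set was under the filter.

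The small subunit processome and the factors of 40S maturation made up the largest group, with 21 genes and 30 probe sets. Of its 15 tested probe sets 0 passed the adjusted test, 7 had log2 differences above and 8 below 0, and the median was −0.02. The smallest p was that of TSR2, a chaperone that, in yeast, delivers a ribosomal protein to the pre-40S particle. Its signals were 159, 176 and 131 in adult oocytes and 248, 224 and 205 in prepubertal oocytes. Each prepubertal array was above each adult array, with a log2 difference of −0.50 ± 0.17 (1.41-fold lower in adult oocytes; unadjusted p = 0.0116, adjusted p = 0.309). As deposited the difference was −0.26 and the groups overlapped.

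RRP9, a protein of the U3 snoRNP, whose RNA pairs with the ribosomal RNA precursor, had 3 probe sets on the array, and its 2 tested ones had differences of opposite sign. Probe set 1 had signals of 5.18, 19.8 and 4.84 in adult oocytes and of 23.5, 26.9 and 25.9 in prepubertal oocytes. The prepubertal arrays lay together just above the filter (mean 25.4) and the adult mean of 9.95 was under it, so the probe set was tested only because the prepubertal signals were higher. Its log2 difference of −0.72 ± 0.29 (adjusted p = 0.397) is given as a description. As deposited this probe set was under the filter and was not tested. Probe set 2 had signals of 15.97, 20.9 and 20.9 in adult oocytes and of 14.4, 7.47 and 24.2 in prepubertal oocytes, with overlap and a log2 difference of 0.20 (adjusted p = 0.845). Probe set 3 was under the filter.

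**Figure D2:**
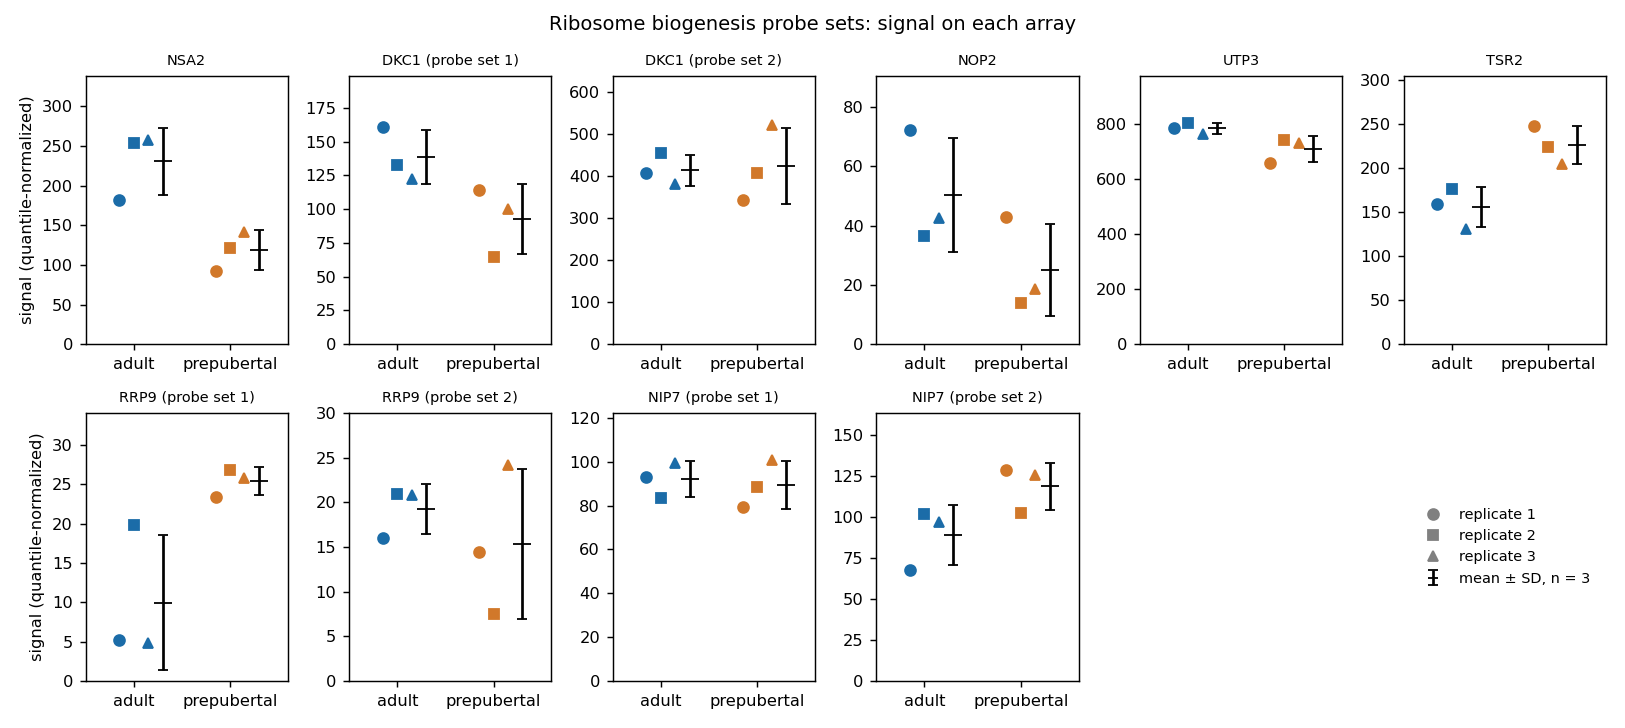
Quantile-normalized signal (vertical axes, linear, from 0) of 10 probe sets of 7 ribosome biogenesis genes on each adult (blue) and prepubertal (orange) array; marker shapes give the replicate number and black bars the mean ± SD of 3 arrays. NSA2, UTP3, TSR2 and 1 probe set each of DKC1, RRP9 and NIP7 separate the groups, while the other probe sets of DKC1, RRP9 and NIP7 and NOP2 overlap.

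The other members of the small subunit group lay closer to 0. UTP14A, which in yeast activates a helicase that frees the particle from the U3 RNA, had signals of 2189, 2043 and 1652 in adult oocytes and of 1718, 1722 and 1572 in prepubertal oocytes. Adult replicate 3 overlapped with the prepubertal arrays, and the log2 difference was 0.22 ± 0.12 (adjusted p = 0.531). UTP3, another processome protein, had signals of 786, 803 and 762 in adult oocytes and of 656, 742 and 731 in prepubertal oocytes. It falls outside the rule for named genes and was chosen after its values were seen, because its groups did not overlap, but the difference was 1.10-fold (log2 difference 0.14, adjusted p = 0.701). UTP11, a further processome protein, had signals of 6435, 6096 and 7087 in adult oocytes and of 6534, 7145 and 6965 in prepubertal oocytes. Its log2 difference was −0.08 with a 95% interval from −0.26 to 0.11, the narrowest interval of the 41 tested members in the plot of differences by role. WDR75, a WD-repeat protein of the processome, had a log2 difference of 0.35 (adjusted p = 0.597), on signals of 60.0, 71.3 and 101 in adult oocytes and of 72.6, 43.5 and 55.0 in prepubertal oocytes. The remaining tested genes of the group (BYSL, IMP3, NOL6, NOL10, PNO1, UTP4, UTP18 and WDR3) had log2 differences between −0.25 and 0.15.

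The 60S assembly factors had 19 genes and 25 probe sets on the array, of which 18 probe sets of 15 genes were tested. On the normalized values 0 of 18 passed, 8 differences were above and 10 below 0, and the median was −0.07. NSA2 encodes a nucleolar protein that, in yeast, joins the pre-60S particle and is needed to process its precursor RNA. Its deposited signals were 226, 238 and 286 in adult oocytes and 92.1, 101 and 126 in prepubertal oocytes. After normalization they were 182, 253 and 257 in adult oocytes and 91.8, 122 and 142 in prepubertal oocytes. The lowest adult array was above the highest prepubertal array in both forms, and adult replicate 1 moved most between them.

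On the normalized scale NSA2 had a mean of 231 ± 42.3 in adult and 118 ± 25.1 in prepubertal oocytes (SD, n = 3 each). The log2 difference was 0.88 ± 0.20 (SE), or 1.84-fold with a 95% interval of 1.36 to 2.48, at an unadjusted p of 0.000794 and a limma adjusted p of 0.11. On the values as deposited NSA2 was 2.17-fold higher in adult oocytes (log2 difference 1.12 ± 0.23, adjusted p = 0.0263) and was the 1 member of 40 tested that passed, where 0.475% of all probe sets did (57 of 12000, 53 of them higher in adult oocytes). That log2 difference of 1.12 stands beside the shift of 0.20 of all probe sets on the same scale. At an unadjusted p under 0.05 the deposited values gave 5 members with higher signals in adult oocytes (background 13.6%) and 0 with lower ones (background 1.14%). The call of NSA2 as deposited was lost without any adult replicate and without prepubertal replicate 2, with adjusted p between 0.0934 and 0.127. It held without prepubertal replicate 1 (0.0102) and without prepubertal replicate 3 (0.0459). Without prepubertal replicate 1 the deposited values also called DKC1 (probe set 1, 1.88-fold, adjusted p = 0.0299) and NOP2 (2.14-fold, 0.0256), both with higher signals in adult oocytes. NSA2 was measured by 1 probe set, so its difference could not be set beside that of another.

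NOP2 is a ribosomal RNA methyltransferase of the large subunit pathway. Its signals were 72.4, 36.4 and 42.6 in adult oocytes and 42.9, 14.0 and 18.7 in prepubertal oocytes. Prepubertal replicate 1 lay within the adult range and the other prepubertal arrays below it, and the log2 difference was 0.72 ± 0.30 (1.64-fold; unadjusted p = 0.0331, adjusted p = 0.408). NOP16, a nucleolar protein of the pre-60S particle, had signals of 21.5, 35.5 and 17.9 in adult oocytes and of 52.6, 34.6 and 36.8 in prepubertal oocytes. Adult replicate 2 overlapped with the prepubertal arrays, and the log2 difference was −0.49 ± 0.25 (adjusted p = 0.498). WDR74, a WD-repeat protein of the pre-60S particle, had a log2 difference of −0.32 (adjusted p = 0.595).

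WDR12, the tested partner of PES1 and BOP1, had signals of 401, 330 and 254 in adult oocytes and of 441, 310 and 322 in prepubertal oocytes. RRP15, another pre-60S factor, had signals of 420, 411 and 322 in adult oocytes and of 500.2, 357 and 395 in prepubertal oocytes. Both overlapped between the groups, with log2 differences of −0.12 and −0.11 and 95% intervals from −0.54 to 0.29 and from −0.48 to 0.25. The tested genes not named one by one in this group (GNL2, GNL3, NOC3L, NOL12, RRP1B and RRS1) had log2 differences between −0.50 and 0.20, and 0 of them had an unadjusted p under 0.05.

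Only 5 genes had 2 tested probe sets, and in all 5 the normalized differences were of opposite sign, although that of DKC1 probe set 2 was −0.02. So no gene had its direction repeated by a second tested probe set on the normalized values. Besides DKC1 and RRP9 these were NIP7, GNL3L and NOC2L. NIP7, a factor of pre-ribosomal RNA processing, had signals of 67.9, 102 and 97.0 in adult oocytes and of 129, 102 and 126 in prepubertal oocytes on probe set 2. Its groups touched at adult replicate 2 and prepubertal replicate 2 without overlapping (log2 difference −0.37, adjusted p = 0.509), while probe set 1 had a difference of 0.04. GNL3L, a nucleolar GTPase, had log2 differences of 0.39 and −0.46 on probe sets 1 and 3 (adjusted p = 0.718 and 0.597), and the other was under the filter. NOC2L, which is also known to bind histones, had 0.26 and −0.27 (adjusted p = 0.737 and 0.751). The difference between the 2 probe sets' differences was 0.55 for DKC1, −0.92 for RRP9, 0.53 for NOC2L, 0.41 for NIP7 and 0.85 for GNL3L. In exact permutation tests over arrays, with 5 genes compared, p lay between 0.1 and 0.3 (0.3 after Benjamini-Hochberg adjustment for each). Since 0.1 is the smallest p possible here, these tests could not have passed 0.05.

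The members also differed by array. Adult replicate 3 was the lowest of the 6 arrays for 15 of the 41 tested members (36.6%, against 14.6% of all tested probe sets), and prepubertal replicate 3 was the highest for 11 (26.8%, against 16.6%). The median deviation of the members from their own mean over the 6 arrays was −0.12 on adult replicate 3 and 0.14 on prepubertal replicate 3, on the log2 scale. It lay between −0.08 and 0.05 on the other 4 arrays. The median difference of the members was −0.01 without adult replicate 3 and 0.04 without prepubertal replicate 3.

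**Figure D3:**
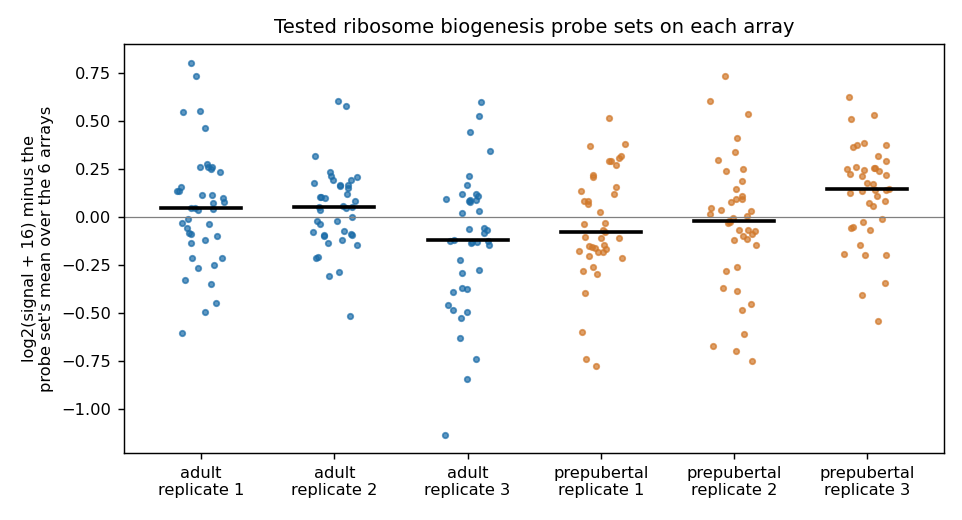
Deviation of each tested ribosome biogenesis probe set from its own mean over the 6 arrays (vertical axis, log2(signal + 16), quantile-normalized), by array; blue points are adult and orange points prepubertal arrays, and black lines are medians over 41 probe sets. The medians lie between −0.12 on adult replicate 3 and 0.14 on prepubertal replicate 3.

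Further genes of ribosome production that the symbols did not cover were taken from a list of RNA polymerase I subunits and factors, helicases, exosome subunits and assembly and export factors. The list had 69 genes on the array, measured by 115 probe sets, of which 80 were tested. None of the 80 passed the adjusted test in limma. At an unadjusted p under 0.05, 8 of the 80 had higher signals in adult oocytes (background 5.81%) and 4 had lower ones (background 5.05%). As deposited 18 had higher signals (background 13.6%) and 0 had lower ones (background 1.14%). Groups did not overlap for 11 with higher signals in adult oocytes (background 8.77%) and for 8 with lower ones (background 7.54%). Their median log2 difference was 0.05, against −0.03 for the members and 0.01 for all probe sets, and as deposited the 3 medians were 0.22, 0.18 and 0.20.

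XRN2, the exonuclease that trims 5′ ends of ribosomal RNA precursors, had the smallest p of the list. Its signals were 225, 197 and 246 in adult oocytes and 120, 153 and 131 in prepubertal oocytes, without overlap (log2 difference 0.66 ± 0.17, 1.58-fold, adjusted p = 0.159). DNTTIP2, a processome protein, had signals of 129, 110 and 94.6 in adult oocytes and of 73.2, 68.0 and 53.4 in prepubertal oocytes (log2 difference 0.65 ± 0.19, adjusted p = 0.229). DDX21, a nucleolar RNA helicase, had 4885, 4336 and 4308 in adult oocytes and 3893, 3601 and 3393 in prepubertal oocytes. PWP1, a WD-repeat protein linked to RNA polymerase I transcription, had 2202, 2115 and 2074 in adult oocytes and 1596, 1759 and 1728 in prepubertal oocytes. Neither overlapped between groups, and their log2 differences were 0.31 and 0.33 (adjusted p = 0.24 and 0.25). These 4 were chosen for the smallest p in the list, so the separation of their groups is a description, and none passed the threshold over all probe sets. The 4 with lower signals in adult oocytes at an unadjusted p under 0.05 were named after their values were seen. They were probe set 1 of NGDN (log2 difference −0.21), TAF1D (−0.54), probe set 4 of TAF1B (−0.61) and RPF1 (−0.42), with adjusted p between 0.328 and 0.403. The other tested probe set of NGDN had a log2 difference of 0.06. TAF1B, a subunit of an RNA polymerase I initiation factor, had 0.64 on probe set 3. As deposited the log2 differences of XRN2, DNTTIP2, DDX21 and PWP1 lay between 0.57 and 0.91, with adjusted p between 0.0856 and 0.139.

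**Figure D4:**
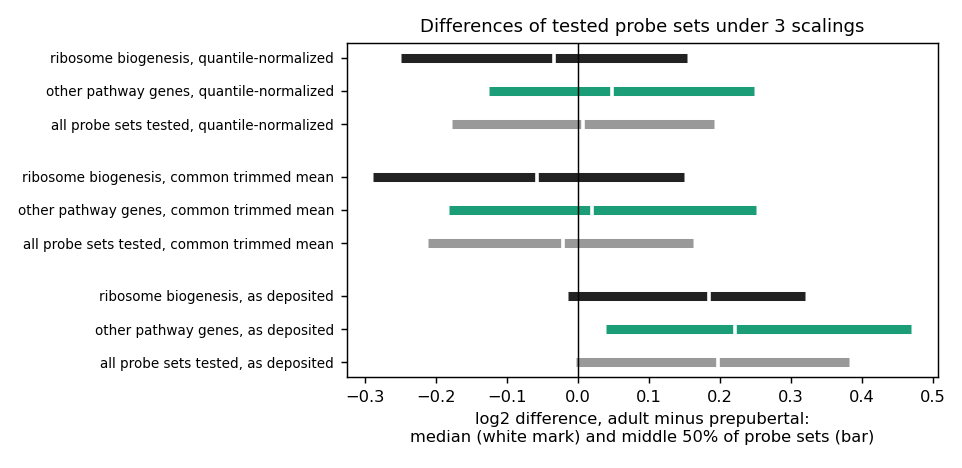
Log2 differences (horizontal axis, adult minus prepubertal) of the tested ribosome biogenesis probe sets (black), other genes of ribosome production (green) and all tested probe sets (grey) under quantile normalization, scaling to a common trimmed mean, and as deposited; bars span the middle 50% of probe sets and white marks are medians. The 3 lists move together, with medians between −0.06 and 0.05 under both scalings and between 0.18 and 0.22 as deposited.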

How the data were processed

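RNA with poly(A) tails was bound to oligo(dT) beads, amplified in 2 cycles and hybridized as biotinylated cRNA, per the labels' protocols, so signals depend on poly(A) tails and weigh the 3′ ends of transcripts. The deposited values are linear signal intensity values, 1 per probe set and array, made by the authors with MAS5, per the submitters' processing notes. The sources used here give neither its version nor its scaling target. All 6 value columns matched a sample (0 unmatched).

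The 124 control probe sets were left out. Signals were quantile-normalized because the arrays shared no common level, 16 was added, log2 was taken, and 12000 probe sets at or above the median mean were tested with limma 3.58.1 in R 4.3.3 (lmFit, eBayes with an intensity trend, 2-sided, Benjamini-Hochberg over all tested, threshold 0.05), adult minus prepubertal. Each adjusted p of a gene or probe set comes from limma. The fit was tested on simulated data. The added constant damps folds of dim genes, and the number of arrays limits the precision.

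Symbols came from the platform annotation; 63 of the 65 member probe sets had an Entrez identifier in RefSeq's Sscrofa11.1 table, and NOC2L kept its platform symbol. No coordinates or sequences are given. Named genes were all members called in either scaling, the 6 smallest p in each direction, the 2 brightest genes per role group, genes with opposite probe sets, NSA2, the 4 smallest p of the other pathway genes and the 2 brightest per marker list. BMP15, POU5F1, GDF9, NPM2, ZP3, HSD3B1, CYP19A1, FSHR, STAR, NGDN, TAF1B, TAF1D, RPF1, FBL, GAR1 and UTP3 were named outside this rule with their values or as filter checks, and the remaining members only in lists with counts and ranges. The members, lists and the choice of normalization were made with earlier results of these data known. Alternatives were other scalings, constants, filters and variance models, the replicate number as a block, and leaving out each array.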

Additional observations from a re-analysis of the deposited data

How the results depend on the processing

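The count of 14 probe sets past the threshold over the whole array depended on most settings. It was 57 as deposited, 2 with 1 added before log2, 28 with 64 added, 2 without a filter, 55 with a filter at the 75th percentile (6000 tested) and 0 without an intensity trend in limma (1173 at an unadjusted p under 0.05), and it lay between 0 (without adult replicate 2, 930 unadjusted) and 198 (without prepubertal replicate 1) when 1 array was left out. Scaled to a common trimmed mean it was 20, of which 16 were higher in adult oocytes, against 11 of 14 and, as deposited, 53 of 57. With the replicate block it was 33, which held all 14. Same-numbered arrays had deviations that correlated at 0.018 to 0.082, and 2 of 3 arrays in each group correlated best with their own number. Whether same-numbered arrays belong together was not tested, and the numbers were not taken as pairs in the main fit. Ribosome biogenesis members past the threshold numbered 1 as deposited and 0 under each of the other settings run, the replicate block and leaving out any array included. They were also 0 among the 38 members at or above the filter in both groups, an alternative chosen after seeing the data. On the deposited values without 1 array they numbered 0 to 3. The members' median log2 difference was 0.18 as deposited. NSA2 had higher values in adult oocytes in all settings run, with log2 differences from 0.69 to 1.23 and adjusted p from 0.0102 to 0.399.

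Several differences turned sign. As deposited they were 0.042 for UTP11, 0.030 for NOP56, 0.16 for RRP15, 0.15 for WDR12, 0.25 for NOP10, 0.26 for DKC1 probe set 2, 0.18 for GAR1 and 0.047 for ZP4. BYSL, RRS1, UTP4, UTP18, WDR3 and IMP3 also turned from below to above 0 as deposited, IMP3 from −0.25 to 0.019. Without 1 array, differences of genes named above ranged from −0.45 to 0.18 for NOP56, −0.21 to 0.023 for RRP15, −0.27 to 0.038 for WDR12, −0.13 to 0.13 for NOP10, −0.16 to 0.13 for DKC1 probe set 2, −0.035 to 0.11 for NIP7 probe set 1 and −0.060 to 0.14 for INHBA. Across all settings run, RRP1B (−0.75 to 0.16), NOL12 (−0.13 to 0.47), GNL3 (−0.09 to 0.44), PNO1, NOL6 and GNL2 also changed sign. BYSL, GAR1 and RRS1 changed sign in further settings besides the deposited values. The cause of these changes of sign was not tested. Signal over background was not analysed here, and the dimmest tested probe sets lay near the filter at a signal of 16.1.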

Other observations

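The array also carries control probe sets for ribosomal RNA, the product of this pathway. These RNAs have no poly(A) tail, and the samples were poly(A)-selected. One 28S probe set had deposited signals of 673, 483 and 410 in adult oocytes and of 385, 256 and 280 in prepubertal oocytes. The groups did not overlap, at a log2 difference of 0.76 (1.69-fold; exact permutation p = 0.1, the smallest possible, and 0.2 after adjustment over 4 probe sets). After scaling to a common trimmed mean, chosen after seeing the data, the log2 difference was 0.49 (exact permutation p = 0.2) and the groups overlapped. The second 28S probe set had log2 differences of 0.62 as deposited and 0.35 after scaling (exact permutation p = 0.2 and 0.3). The 18S probe sets had 0.28 and −0.14 as deposited and 0.01 and −0.40 after scaling, with exact permutation p between 0.1 and 1.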
